A study of Homo sapiens with 8 samples.

Results

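The cyclins that carry cells from G1 into S phase and the kinases they switch on were followed in human embryonic stem cells (hESCs) whose secreted MFGE-8 was blocked. The set was named by symbol and holds 10 genes of the 62086 in the count table, namely the D-type cyclins CCND1, CCND2 and CCND3, the E-type cyclins CCNE1 and CCNE2, the A-type cyclins CCNA1 and CCNA2, and the kinases CDK2, CDK4 and CDK6. All 10 were among the 20165 genes that passed the filter on low counts. BG01, an hESC line grown without feeder cells in mTeSR medium, received 5 µg/mL of the MFGE-8-neutralizing antibody MFG-06 (anti-M8nAb) for 12 or 24 h, or 5 µg/mL of isotype mouse IgG for the same times. Total RNA was sequenced from 2 libraries in each of the 4 groups, 8 in all, from 1 line. MFGE-8 is a secreted glycoprotein that binds membranes and integrins, and the study asked what its blockade does to gene expression. For cyclin D1 the paper proposes control through phosphorylation of the protein, which RNA levels do not measure. The paper also reported lower expression of cyclins by RT-qPCR after the blockade.

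D-type cyclins bind CDK4 or CDK6 and begin the phosphorylation of the retinoblastoma protein RB, which holds back the E2F transcription factors. E-type cyclins with CDK2 complete it at the entry into S phase, and A-type cyclins with CDK2 act while DNA is copied. Human embryonic stem cells cycle fast with a short G1, and inhibitors of the INK4 family (against CDK4 and CDK6) and of the CIP/KIP family (against CDK2 above all) are kept low in them.

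Each library held 21010400 to 21792716 counts over genes, with a common biological coefficient of variation of 5.53%. The libraries are labelled as biological replicates without saying whether they grew in separate cultures, so the p-values measure only the spread between these libraries. In such bulk RNA, fewer cells in a phase of the cycle and less RNA per cell cannot be told apart. The 12 markers of pluripotent stem cells summed to between 2017 and 2371 FPKM in the anti-M8nAb libraries, with none at 0. In the IgG libraries they summed to between 2054 and 2256 FPKM, with none at 0. At 12 h 8 of them rose and 1 (EPCAM) fell, where 15.8% of all genes tested rose and 16.4% fell. At 24 h 3 (POU5F1, LIN28A and DPPA4) rose and 4 (SOX2, NANOG, ZFP42 and EPCAM) fell, beside 21.2% and 21.3% of all genes. The 21 markers of differentiated lineages summed to between 13.0 and 15.4 FPKM with anti-M8nAb and between 13.5 and 17.5 FPKM with IgG, with 3 to 6 of them at 0 in a library. Of the 11 that passed the filter, EOMES, PAX6, SOX1 and GATA3 were higher and KRT7 lower at 12 h. At 24 h GATA3 was higher and MIXL1 and FOXA2 lower. EOMES, SOX1 and GATA3 passed the filter on low counts only through the anti-M8nAb libraries, which favours a higher value there. The part of these markers in the results was not tested. None of the 7 blood and endothelial markers passed the filter, and their counts summed to at most 31 in a library.

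The promoters of 3 members that responded in the same direction at both times are shown, CCNE1 and CCNA2 (both lower with anti-M8nAb) and CDK6 (higher). They come from RefSeq on GRCh38.p14 and run from 250 bases before the start to 50 after it. Capitals mark GC boxes (GGGCGG on either strand, bound by SP1), the CRE core TGACGT on either strand (bound by CREB and ATF factors) and the CCAAT box on either strand (bound by NF-Y).
CCNE1, chr19:29811741-29812040, plus strand: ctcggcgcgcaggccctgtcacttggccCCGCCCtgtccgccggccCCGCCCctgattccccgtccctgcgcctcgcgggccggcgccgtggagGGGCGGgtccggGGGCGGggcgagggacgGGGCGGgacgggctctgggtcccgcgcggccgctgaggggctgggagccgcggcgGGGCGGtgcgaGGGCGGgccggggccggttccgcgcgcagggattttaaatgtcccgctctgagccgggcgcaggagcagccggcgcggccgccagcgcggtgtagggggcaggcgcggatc
CCNA2, chr4:121823834-121824133, minus strand: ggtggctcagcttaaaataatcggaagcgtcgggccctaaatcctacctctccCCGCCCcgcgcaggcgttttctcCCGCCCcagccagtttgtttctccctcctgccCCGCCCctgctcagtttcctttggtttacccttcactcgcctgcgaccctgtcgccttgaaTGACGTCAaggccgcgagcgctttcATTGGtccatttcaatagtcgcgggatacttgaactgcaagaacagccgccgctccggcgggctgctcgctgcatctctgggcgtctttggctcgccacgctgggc
CDK6, chr7:92836524-92836823, minus strand: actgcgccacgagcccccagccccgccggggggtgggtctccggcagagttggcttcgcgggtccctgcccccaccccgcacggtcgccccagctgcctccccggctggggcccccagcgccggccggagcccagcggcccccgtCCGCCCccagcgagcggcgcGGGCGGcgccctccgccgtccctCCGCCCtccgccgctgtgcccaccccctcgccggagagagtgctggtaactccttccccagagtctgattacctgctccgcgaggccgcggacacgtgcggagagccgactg

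CCNE1 held 7 GC boxes, a number that 1.5% of 35116 promoters of this length reached. CCNA2 held 3 GC boxes, which 15.8% of promoters reached, an inverted CCAAT box at -56 from the start, and 2 overlapping CRE cores that form TGACGTCA from -81. A CCAAT box was in 34.6% of all promoters and 2 CRE cores in 2.2%. CDK6 had 3 GC boxes at the start shown, and at a second start, not shown, 1 CRE core (7.98% of promoters). A search for the E2F letters TTTCCCGC, TTTCGCGC, TTTGCCGC and TTTGGCGC, which 3.31% of promoters held, found no match in the promoters of CCNE1, CCNA1, CCNA2, CCND3, CDK4 and CDK6. The CHR letters TTTGAA and TTCGAA (16.4% of promoters) were not in these windows either. Only these exact letters were sought, so the presence of other forms of E2F or CHR sites was not tested. CCND1, CCND2, CCNE2 and CDK2 had no entry among the promoters used.

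Relative to IgG, anti-M8nAb moved most of these genes, and at both times it moved CCND1 and CCND2, and CCNA1 and CCNA2, in opposite directions. At 12 h, 9 of the 10 passed edgeR's quasi-likelihood test at an adjusted p under 0.05, against 32.2% of all genes tested (percent called), with CCND2, CCNE2, CCNA1 and CDK6 higher (15.8% of all genes were) and CCND1, CCND3, CCNE1, CCNA2 and CDK2 lower (16.4%). At 24 h, 8 passed, against 42.5% of all genes, with CCND2, CCNA1 and CDK6 higher (21.2% of all genes) and CCND1, CCNE1, CCNA2, CDK2 and CDK4 lower (21.3%). The libraries of the antibodies did not overlap for any of the 10 at either time, as for 66.3% of all genes at 12 h and 69.0% at 24 h. Well-expressed genes passed more often, 42.5% at 12 h and 54.9% at 24 h among those with a mean of at least 10 CPM (counts scaled to a common library size), a level that 9 of the members exceed. The 7 members called at both times moved the same way at both (3 higher, 4 lower), as 20.8% of all genes did. The changes were moderate. None reached a log2 fold change of 1 in size, a threshold that with the test 6.37% of all genes passed at 12 h and 9.6% at 24 h. In size, the log2 fold changes had a median of 0.43 among the members at 12 h and of 0.62 at 24 h, beside 0.26 and 0.32 over all genes tested.

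**Figure D1:**
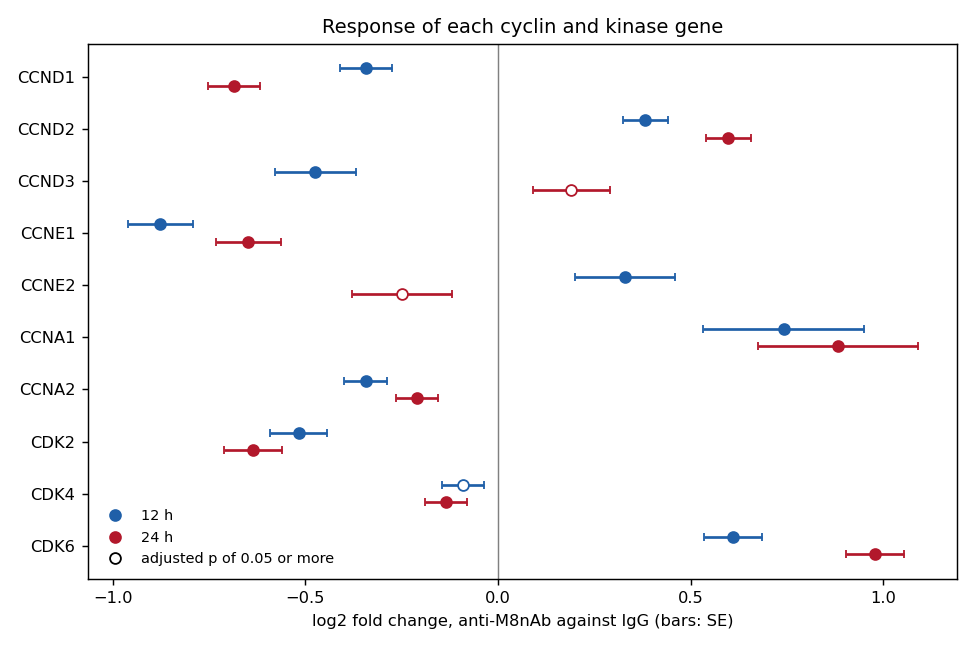
Log2 fold change of each cyclin and kinase gene, anti-M8nAb against IgG, at 12 h (blue) and 24 h (red), with the standard error from the edgeR fit as bars; open circles have an adjusted p of 0.05 or more. CCND2, CCNA1 and CDK6 lie right of 0 and CCND1, CCNE1, CCNA2, CDK2 and CDK4 left of it at both times, while CCND3 and CCNE2 change side between 12 and 24 h.

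Cyclin D1 (CCND1, chromosome 11 from 69641156 to 69654474 on GRCh38) carries mitogen and adhesion signals to CDK4 and CDK6. Its level, in CPM after TMM scaling, was 67.7 and 70.3 with anti-M8nAb at 12 h, against 88.6 and 86.5 with IgG. At 24 h it was 67.4 and 64.8 CPM with anti-M8nAb, against 101 and 111 CPM with IgG. The anti-M8nAb libraries lay below the IgG libraries at both times, by more than replicates differed. CCND1 fell by 0.34 on the log2 scale at 12 h (SE 0.07, adjusted p = 8.72e-05) and by 0.69 at 24 h (SE 0.07, adjusted p = 1.49e-11). With IgG the gene rose between the times (log2 fold change 0.28, adjusted p = 0.00256), and with anti-M8nAb it had a log2 fold change of -0.06 (adjusted p = 0.54). Of its exons, 10.4% overlap LTO1 on the other strand, and LTO1 had log2 fold changes of -0.13 at 12 h (adjusted p = 0.317) and -0.71 at 24 h (adjusted p = 1.36e-08). The share of LTO1 reads in the CCND1 counts was not tested.

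CCND2 (chromosome 12 from 4269771 to 4305353), which encodes cyclin D2, went the other way. It stood at 215 and 211 CPM with anti-M8nAb at 12 h, against 166 and 161 CPM with IgG, and at 249 and 253 CPM at 24 h, against 178 and 154 CPM. The groups did not overlap at either time. CCND2 rose by 0.38 on the log2 scale at 12 h (SE 0.06, adjusted p = 9.92e-07) and 0.60 at 24 h (SE 0.06, adjusted p = 9.21e-12). The IgG libraries at 24 h differed in FPKM by 14.2% of their mean, the widest gap for this gene. An unnamed gene on the same strand, ENSG00000285901, shares 12.5% of the CCND2 exons.

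CCND3 (chromosome 6 from 41934934 to 42050357), the cyclin D3 gene and the least abundant of the D-type genes, turned with time. At 12 h it was at 19.8 and 17.8 CPM with anti-M8nAb, against 27.5 and 24.8 CPM with IgG. At 24 h it was at 30.3 and 31.5 CPM, against 25.7 and 28.5 CPM. Both anti-M8nAb libraries were lower at 12 h and both were higher at 24 h. CCND3 fell by 0.47 at 12 h (SE 0.11, adjusted p = 4.08e-04), and at 24 h its log2 fold change of 0.19 (SE 0.10, adjusted p = 0.125) did not pass. Within the anti-M8nAb groups CCND3 rose by 0.71 between the times (adjusted p = 4.71e-07), beside 0.05 in the IgG groups (adjusted p = 0.81).

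**Figure D2:**
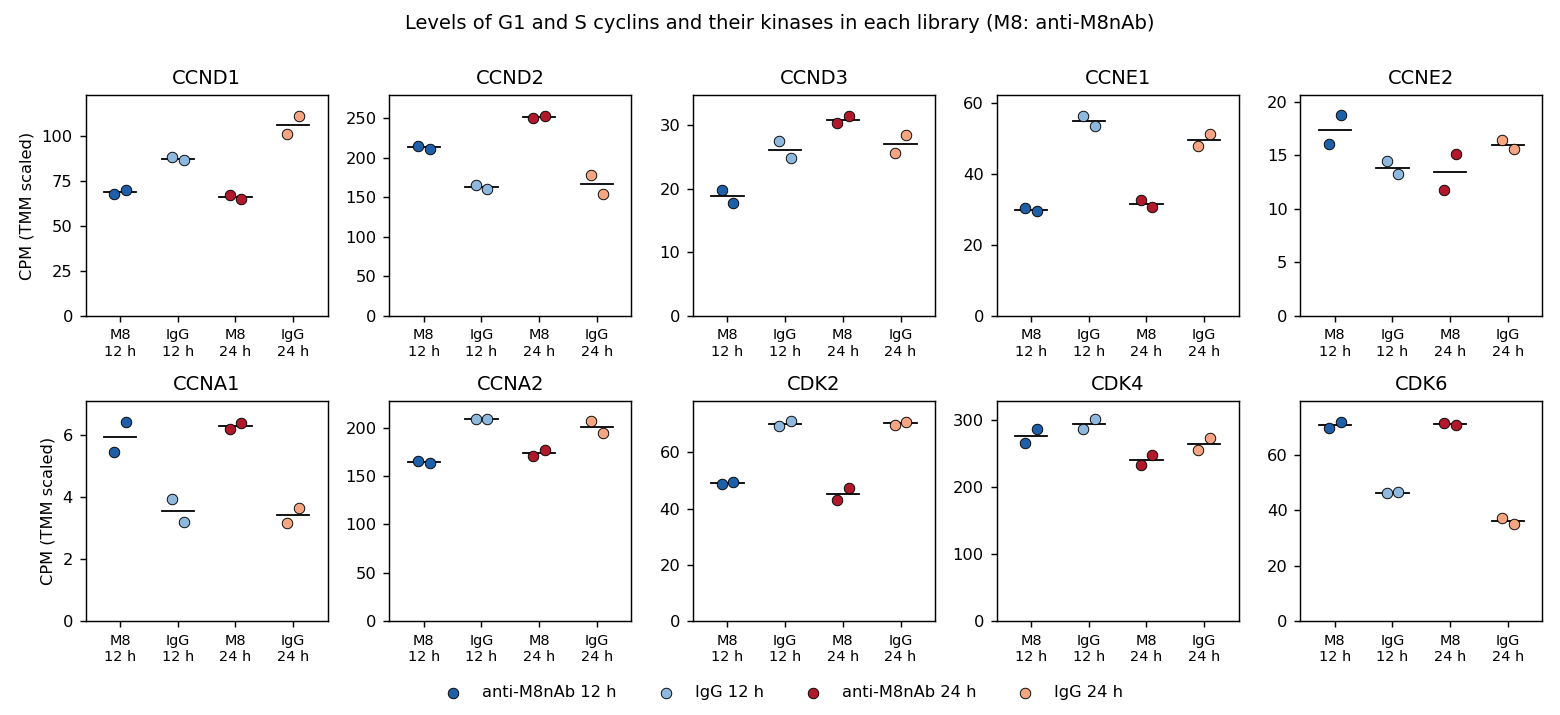
CPM after TMM scaling of the 10 genes in each library, a panel for each gene, with anti-M8nAb (M8) left of IgG at 12 h and at 24 h; points are libraries and bars the group means. CDK6 and CCND2 are higher in both anti-M8nAb libraries than in both IgG libraries at both times, and CCND1, CCNE1, CCNA2 and CDK2 are lower.

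Because gene length enters counts, the share of each cyclin in its family was taken from FPKM. The makeup of the D-type family shifted, and its sum in FPKM moved little. FPKM are scaled by library size without TMM. Relative to TMM, library sizes alone moved the median log2 fold change of all genes by -0.06 at 12 h and -0.09 at 24 h. The summed level was 43.0 and 43.1 FPKM with anti-M8nAb at 12 h, against 44.7 and 43.0 FPKM with IgG, and 49.5 and 49.6 FPKM at 24 h, against 49.8 and 49.6 FPKM. CCND2 made up 60.4 and 59.6% of this sum with anti-M8nAb at 12 h, against 47.0 and 47.3% with IgG, and 61.7 and 62.4% at 24 h, against 46.4 and 40.5%. CCND1 made up 31.9 and 33.4% at 12 h, against 42.2 and 42.6%, and 28.0 and 26.8% at 24 h, against 44.3 and 49.1%. The ratio of CCND2 to CCND1 in FPKM was 1.89 and 1.79 with anti-M8nAb at 12 h, against 1.12 and 1.11 with IgG. It was 2.21 and 2.33 with anti-M8nAb at 24 h, against 1.05 and 0.823 with IgG. CCND2 and CCND1 were near parity with IgG, and CCND2 led in every anti-M8nAb library. CCND3 held at most 10.8% of the family in any library.

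**Figure D3:**
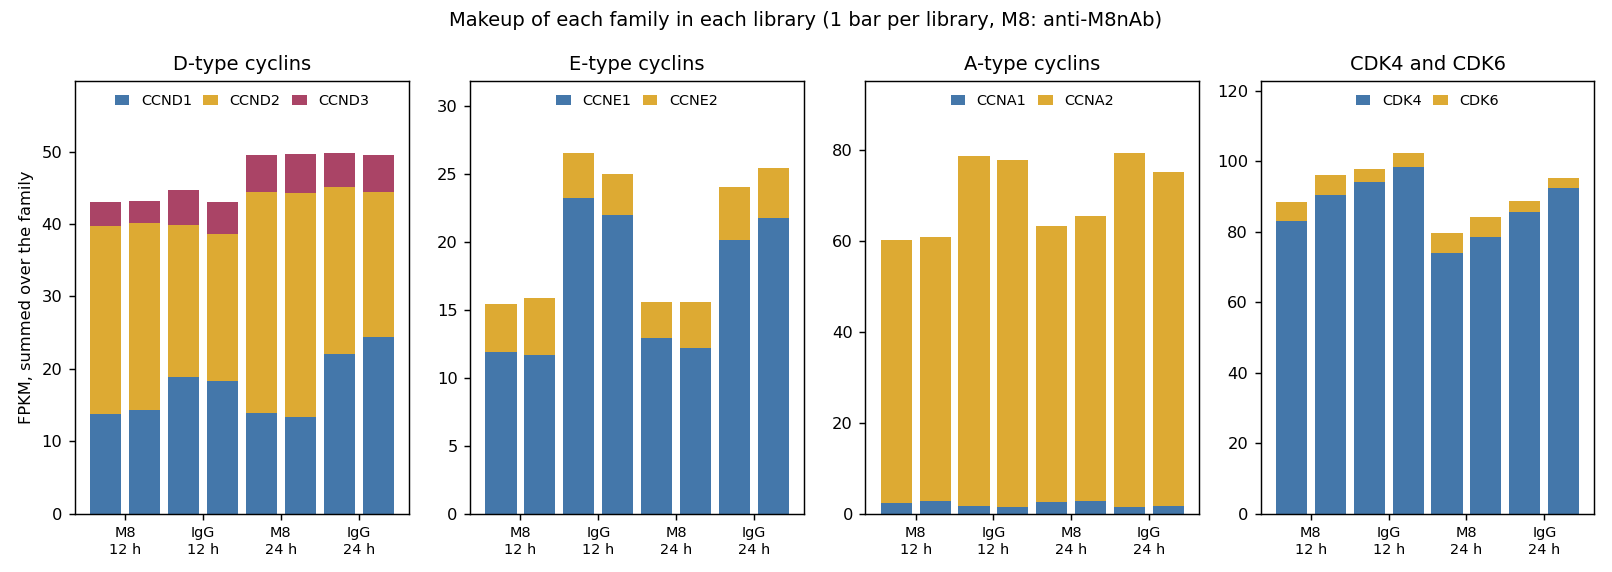
FPKM of the D-type, E-type and A-type cyclins and of CDK4 and CDK6, stacked by gene within each family, one bar for each library, with anti-M8nAb (M8) left of IgG at each time. The D-type bars are of like height within a time (43.0 to 44.7 FPKM at 12 h, 49.5 to 49.8 at 24 h) with a larger CCND2 part under anti-M8nAb, and the E-type and A-type bars are shorter under anti-M8nAb.

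Cyclin E1 (CCNE1, chromosome 19 from 29811991 to 29824312), the main activator of CDK2 at the start of S phase, fell more than any other member at 12 h. Its level was 30.3 and 29.5 CPM with anti-M8nAb, against 56.3 and 53.6 CPM with IgG. At 24 h it was 32.6 and 30.7 CPM, against 47.9 and 51.3 CPM. The groups were far apart at both times, and no other gene shares its exons. CCNE1 fell by 0.88 at 12 h (SE 0.08, adjusted p = 2.14e-11) and by 0.65 at 24 h (SE 0.08, adjusted p = 2.31e-08). This amounts to 45.5% less CCNE1 at 12 h and 36.2% less at 24 h.

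CCNE2 (chromosome 8 from 94879770 to 94896678), encoding cyclin E2, did not follow CCNE1. It was at 16.0 and 18.7 CPM with anti-M8nAb at 12 h, against 14.4 and 13.2 CPM with IgG, and at 11.8 and 15.1 CPM at 24 h, against 16.4 and 15.5 CPM. The anti-M8nAb libraries at 24 h lay 24.6% of their mean apart in FPKM. CCNE2 rose by 0.33 at 12 h (SE 0.13, adjusted p = 0.0454), and at 24 h its log2 fold change was -0.25 (SE 0.13, adjusted p = 0.123). The call at 12 h was lost without replicate 1 or replicate 2 of IgG (adjusted p = 0.0894 and 0.244) or without replicate 2 of anti-M8nAb at 12 h (adjusted p = 0.348), while without replicate 2 of anti-M8nAb at 24 h the lower value at 24 h passed (adjusted p = 0.0279). The gene shares 37.1% of its exons with others on the opposite strand, mainly INTS8, whose log2 fold changes were -0.06 and -0.04. The E-type sum was 15.4 and 15.8 FPKM with anti-M8nAb at 12 h, against 26.5 and 25.0 FPKM with IgG, and 15.6 FPKM in both anti-M8nAb libraries at 24 h, against 24.0 and 25.4 FPKM.

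Cyclin A2 (CCNA2, chromosome 4 from 121816444 to 121823883) serves CDK2 in S phase and CDK1 later. By FPKM it was the most abundant of the cyclins in this set. It stood at 165 and 164 CPM with anti-M8nAb at 12 h, against 209 and 208 CPM with IgG. At 24 h it stood at 170.3 and 176 CPM, against 207 and 194 CPM. The replicates lay close together at 12 h, and the groups did not overlap at either time. CCNA2 fell by 0.34 at 12 h (SE 0.05, adjusted p = 2.54e-06) and by 0.21 at 24 h (SE 0.05, adjusted p = 0.00165).

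CCNA1 (chromosome 13 from 36431520 to 36442870), whose cyclin A1 is known mainly from male germ cells, was the scarcest member and rose. It had 5.45 and 6.41 CPM with anti-M8nAb at 12 h, against 3.92 and 3.17 CPM with IgG, and 6.18 and 6.38 CPM at 24 h, against 3.15 and 3.66 CPM. These levels rest on 69 to 133 counts in a library. CCNA1 rose by 0.74 at 12 h (SE 0.21, adjusted p = 0.00498) and by 0.88 at 24 h (SE 0.21, adjusted p = 5.33e-04). The call at 12 h was lost without replicate 2 of IgG (adjusted p = 0.0899) or replicate 2 of anti-M8nAb (adjusted p = 0.0649) at 12 h. Among A-type transcripts CCNA1 stayed a small part, 3.87 to 4.56% of the summed FPKM with anti-M8nAb and 1.82 to 2.25% with IgG.

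CDK2 (chromosome 12 from 55966781 to 55972789), the kinase that cyclins E and A share, fell together with CCNE1 and CCNA2. It was at 48.8 and 49.4 CPM with anti-M8nAb at 12 h, against 69.3 and 71.2 CPM with IgG. At 24 h it was at 43.0 and 47.4 CPM, against 69.6 and 70.9 CPM. All 4 IgG libraries lay above all 4 anti-M8nAb libraries. CDK2 fell by 0.52 at 12 h (SE 0.07, adjusted p = 3.32e-07) and by 0.64 at 24 h (SE 0.07, adjusted p = 1.81e-09). PMEL on the other strand, the main partner in an overlap of 16.8% of its exons, had log2 fold changes of -0.17 (adjusted p = 0.0256) and -0.40 (adjusted p = 4.79e-07), and its part in the CDK2 counts was not tested.

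CDK6 (chromosome 7 from 92604921 to 92836573), one of the kinases of the D-type cyclins, had the largest change of the set at 24 h. It was at 69.6 and 71.8 CPM with anti-M8nAb at 12 h, against 46.1 and 46.5 CPM with IgG, and at 71.4 and 70.7 CPM at 24 h, against 37.2 and 34.9 CPM. CDK6 rose by 0.61 on the log2 scale at 12 h (SE 0.07, adjusted p = 9.26e-09) and 0.98 at 24 h (SE 0.08, adjusted p = 1.24e-14), which is 1.97 times the IgG mean. With anti-M8nAb its log2 fold change between the times was 0.01 (adjusted p = 0.951), whereas with IgG it fell by 0.36 (adjusted p = 0.00104).

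CDK4 (chromosome 12 from 57747727 to 57756013), the other kinase of the D-type cyclins, had the smallest changes of the set. It was at 266 and 287 CPM with anti-M8nAb at 12 h, against 287 and 302 CPM with IgG, and at 234 and 249 CPM at 24 h, against 255 and 274 CPM. The groups nearly touched at 12 h and lay close at 24 h, without overlap at either time. The log2 fold changes were -0.09 at 12 h (SE 0.05, adjusted p = 0.207) and -0.14 at 24 h (SE 0.05, adjusted p = 0.0394). The call at 24 h was lost without replicate 2 of IgG (adjusted p = 0.31) or replicate 1 of anti-M8nAb (adjusted p = 0.307) at 24 h, and without either IgG library of 12 h (adjusted p = 0.0556 and 0.0551). TSPAN31 overlaps 44.2% of its exons on the other strand and had log2 fold changes of -0.09 (adjusted p = 0.223) and 0.02 (adjusted p = 0.824). CDK4 transcripts outnumbered those of CDK6 in FPKM by 15.1 and 15.8 to 1 with anti-M8nAb at 12 h, against 24.6 and 25.7 to 1 with IgG. At 24 h the ratios were 12.9 and 13.9 to 1, against 27.2 and 31.1 to 1.

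Ranked by FPKM, CDK4 and CCNA2 led in every group and CCNA1 came last. CDK4 averaged 86.7 ± 5.18 FPKM with anti-M8nAb (SD, n = 2 libraries) and 96.2 ± 3.12 FPKM with IgG at 12 h, and 76.2 ± 3.32 and 88.9 ± 4.85 FPKM at 24 h. CCNA2 averaged 58.0 ± 0.043 FPKM with anti-M8nAb and 76.8 ± 0.382 FPKM with IgG at 12 h, and 61.7 ± 1.48 and 75.7 ± 3.12 FPKM at 24 h. Below them the order depended on the antibody. With anti-M8nAb CCND2 came next, at 25.8 ± 0.192 FPKM at 12 h and 30.7 ± 0.299 FPKM at 24 h. With IgG at 12 h CCNE1 held that place (22.6 ± 0.861 FPKM), ahead of CCND2 (20.7 ± 0.511 FPKM), and CCND1 and CDK2 overlapped there (18.6 ± 0.383 and 18.3 ± 0.290 FPKM). With IgG at 24 h CCND1, CCND2 and CCNE1 followed in turn (23.2 ± 1.63, 21.6 ± 2.17 and 20.9 ± 1.12 FPKM), and each overlapped its neighbour. CDK6 ranked above CCND3 and CCNE2 with anti-M8nAb at both times (5.60 ± 0.164 and 5.68 ± 0.0412 FPKM), and below CCND3 with IgG (3.83 ± 0.0105 and 3.06 ± 0.121 FPKM). The only overlapping neighbours with anti-M8nAb were CCNE2 and CCNA1 at 24 h (2.99 ± 0.521 and 2.73 ± 0.0598 FPKM).

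The response itself differed between the times for 4 members, against 12.3% of all genes tested. The difference of the log2 fold changes (24 h minus 12 h) was 0.66 for CCND3 (SE 0.15, adjusted p = 0.00116), 0.37 for CDK6 (SE 0.11, adjusted p = 0.0152), -0.34 for CCND1 (SE 0.10, adjusted p = 0.0120) and -0.58 for CCNE2 (SE 0.18, adjusted p = 0.0292). For CCND1 and CDK6 the response grew with time in its own direction. In the IgG groups CCND1 was higher and CDK6 lower at 24 h than at 12 h, and in the anti-M8nAb groups neither passed. The CCND3 call held with any 1 library left out. That of CCND1 was lost without replicate 2 of any of the 4 groups (adjusted p = 0.0606 for anti-M8nAb and 0.0632 for IgG at 12 h, 0.0568 for anti-M8nAb and 0.0579 for IgG at 24 h), and without replicate 1 of IgG at 24 h CCND2 passed too (0.31, adjusted p = 0.00731). That of CDK6 was lost without replicate 1 of anti-M8nAb (adjusted p = 0.0652) or either replicate of IgG (adjusted p = 0.0705 and 0.0864) at 12 h, or replicate 2 of IgG at 24 h (adjusted p = 0.0583). That of CCNE2 held only without replicate 1 of anti-M8nAb at 12 h or replicate 2 of anti-M8nAb at 24 h, and its adjusted p was 0.2 without replicate 1 of anti-M8nAb at 24 h.

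Between 12 and 24 h, 3 members changed in the IgG groups, against 13.7% of all genes. Time in culture and time with IgG cannot be told apart there. CCND1 was higher at 24 h, and CDK6 and CDK4 were lower (CDK4 log2 fold change -0.15, adjusted p = 0.0498). The CDK4 call was lost with DESeq2, with limma, with each other scaling and filter tried, and without either IgG library of 12 h or replicate 1 of IgG at 24 h. The CCND1 call was lost without replicate 2 of IgG at 12 h or at 24 h. In the anti-M8nAb groups 4 members changed between the times, against 31.9% of all genes. CCND2 rose (log2 fold change 0.24, adjusted p = 9.98e-04) with CCND3, while CCNE2 (-0.37, adjusted p = 0.0249) and CDK4 (-0.20, adjusted p = 0.00385) fell. Without replicate 2 of anti-M8nAb at 12 h, or without replicate 1 of it at 24 h, 2 of these 4 passed, CCND2 and CCND3, and without replicate 2 of IgG at 12 h 1 of the 3 in the IgG groups passed, CDK6. These comparisons share libraries with those above.

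Among the inhibitors of the same kinases, CDKN2D and CDKN1A were higher with anti-M8nAb at both times. Of the INK4 family, which binds CDK4 and CDK6, 3 of 4 genes passed the filter (CDKN2C had at most 4 counts). Of these, 2 rose at 12 h and 3 at 24 h, beside 15.8% and 21.2% of all genes. CDKN2D, encoding p19, stood at 9.88 and 10.7 CPM with anti-M8nAb at 24 h, against 3.24 and 4.10 CPM with IgG (log2 fold change 1.49, SE 0.19, adjusted p = 1.31e-08). CDKN2B, encoding p15, had 69 and 37 counts with anti-M8nAb at 24 h, against 6 and 6 with IgG (log2 fold change 3.25, SE 0.48, adjusted p = 3.61e-07). It passed the filter on low counts only through the anti-M8nAb libraries, which favours a higher value there, and without it 1 of these genes rose at 12 h and 2 at 24 h. CDKN2A was at 6.67 and 7.45 CPM, against 2.98 and 4.58 CPM (0.90, adjusted p = 5.07e-04). Of the CIP/KIP family, CDKN1A, encoding p21, rose by 1.09 at 12 h and 2.52 at 24 h (adjusted p = 1.90e-25), to 102 and 124 CPM with anti-M8nAb at 24 h, against 20.8 and 18.5 CPM. CDKN1C (p57) was lower at 12 h (-0.41, adjusted p = 0.0181) and higher at 24 h (0.54, adjusted p = 6.66e-04). CDKN1B (p27) was lower at 12 h (-0.28, adjusted p = 0.0132) and had a log2 fold change of -0.05 at 24 h (adjusted p = 0.667).

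Downstream of the kinases, transcripts of the RB family moved apart and more E2F and DP transcripts fell than rose. RB1 fell by 0.71 at 12 h (adjusted p = 4.87e-06) and by 0.32 at 24 h (adjusted p = 0.031), RBL2 (p130) rose by 0.41 and 0.49 (adjusted p = 2.49e-04 and 9.52e-06), and RBL1 (p107) fell by 0.59 at 24 h (adjusted p = 0.00151). Of 10 E2F and DP factors, 1 rose and 3 fell at 12 h, beside 15.8% and 16.4% of all genes. At 24 h 6 fell and none rose, beside 21.3% and 21.2% of all genes. The 3 that fell at 12 h were TFDP2, TFDP1 and E2F3 (-0.25, -0.26 and -0.19, adjusted p = 0.0115, 3.95e-04 and 0.0334). At 24 h the fall was led by TFDP2 (-0.81, adjusted p = 1.85e-11), E2F8 (-0.79, adjusted p = 4.34e-06), E2F2 (-1.20, adjusted p = 8.22e-06) and E2F1 (-0.45, adjusted p = 7.82e-05). The 1 that rose at 12 h was E2F7, a repressor of this family (0.20, adjusted p = 0.0396).

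Of 30 E2F targets that serve DNA replication, 10 fell and 3 rose at 12 h, where 16.4% of all genes were lower and 15.8% higher. At 24 h 24 fell and 1 rose, where 21.3% of all genes were lower and 21.2% higher. The list had a median log2 fold change of -0.07 at 12 h and of -0.34 at 24 h, beside medians of 0.0015 and 0.0034 over all genes. At 24 h UHRF1, which carries DNA methylation through replication, fell by 2.15 (adjusted p = 1.54e-21), RRM2, a subunit of ribonucleotide reductase, by 0.58 (adjusted p = 8.68e-12), and FEN1, a nuclease of lagging strands, by 0.57 (adjusted p = 7.52e-11). The 1 that rose was POLA2, a subunit of DNA polymerase alpha (0.55, adjusted p = 3.70e-04). MCM5, CDT1 and GINS1 were the 3 that rose at 12 h (0.15, 0.22 and 0.22, adjusted p = 0.0263, 0.00698 and 0.0113).

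Among 12 mitotic cyclins, kinases and regulators, CCNB3 was below the filter. At 12 h 8 fell and 1 rose, beside 16.4% and 15.8% of all genes. At 24 h 7 fell and 2 rose, beside 21.3% and 21.2% of all genes. PLK1, the polo kinase of mitotic entry, fell by 1.12 at 12 h and 0.83 at 24 h (adjusted p = 1.72e-18 and 4.15e-15), and CCNB1, cyclin B1, by 0.50 and 0.56 (adjusted p = 3.71e-10 and 7.57e-12). CDC25C, the phosphatase that activates CDK1, rose at both times (0.32 and 0.37, adjusted p = 0.00324 and 5.50e-04), and FOXM1, a factor for mitotic genes, at 24 h (0.13, adjusted p = 0.0332). CDK1 fell by 0.35 at 12 h (adjusted p = 3.29e-05), and at 24 h its log2 fold change was 0.01 (adjusted p = 0.882).

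Of 8 genes for the activation of cyclin-dependent kinases, 1 rose and 2 fell at 12 h, where 32.2% of all genes were called. At 24 h 3 rose and 3 fell, where 42.5% of all genes were called. CDC37, a chaperone partner of CDK4, fell by 0.25 at 24 h (adjusted p = 1.49e-04), and CDC25A, the phosphatase that activates CDK2, by 0.30 (adjusted p = 3.48e-04), whereas CDK7, the CDK-activating kinase, rose by 0.30 (adjusted p = 3.34e-04). The others called at 24 h were CDC25C and MNAT1, higher, and CDC25B, lower, and those at 12 h CDC25C, higher, and CDC37 and CCNH, lower. Of 16 genes for the turnover of cyclins and inhibitors, 3 rose and 5 fell at 12 h, and 4 rose and 4 fell at 24 h. The shares of all genes called, 32.2% and 42.5%, apply here too. CCNF, the F-box cyclin, fell by 1.00 at 24 h (adjusted p = 1.51e-15), CDC20, an activator of the anaphase-promoting complex, by 0.43 (adjusted p = 3.61e-08), while GSK3B, whose kinase marks cyclin D1 for export and breakdown, rose by 0.52 (adjusted p = 7.82e-09) and CKS1B by 0.31 (adjusted p = 5.19e-05). RBX1 and CUL1 also rose and SKP2 and FZR1 also fell at 24 h. At 12 h GSK3B, RBX1 and CUL1 rose, and CCNF, CDC20, SKP2, FZR1 and CKS2 fell.

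Beyond the G1 and S set, 9 of 21 other cyclin genes rose and 5 fell at 12 h, beside 15.8% and 16.4% of all genes. At 24 h 5 rose and 7 fell, beside 21.2% and 21.3% of all genes. CCNO, a gene of this list, passed the filter on low counts only through the anti-M8nAb libraries, which favours a higher value there. CCNG2, whose product is an atypical cyclin, rose by 1.11 and 1.93 (adjusted p = 7.92e-11 and 1.67e-18), CCNI by 0.37 at 24 h (adjusted p = 2.56e-07), and CCNJ and CABLES1 fell by 0.56 and 0.68 at 24 h (adjusted p = 8.00e-08 and 2.55e-06). CCNG1, CCNY and CCNL1 were the other cyclins that rose at 24 h, and CABLES1, CCNJL, CCNY, CABLES2 and CCNH those that fell at 12 h. Of 22 other CDK genes, of which CDK15 was below the filter, 2 rose and 2 fell at 12 h, where 32.2% of all genes were called. At 24 h 4 rose and 2 fell, where 42.5% of all genes were called. The 2 that rose at 12 h were CDK10 and CDK16 (0.34 and 0.18, adjusted p = 0.00135 and 0.0207) and the 2 that fell CDK1 and CDK5 (CDK5 -0.37, adjusted p = 0.0201). At 24 h CDK8, CDK7, CDK19 and CDK16 rose (0.44, 0.30, 0.65 and 0.20, adjusted p = 2.80e-05, 3.34e-04, 4.44e-04 and 0.00621), and CDK14 and CDK12 fell by 0.27 and 0.18 (adjusted p = 0.00798 and 0.0254).

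**Figure D4:**
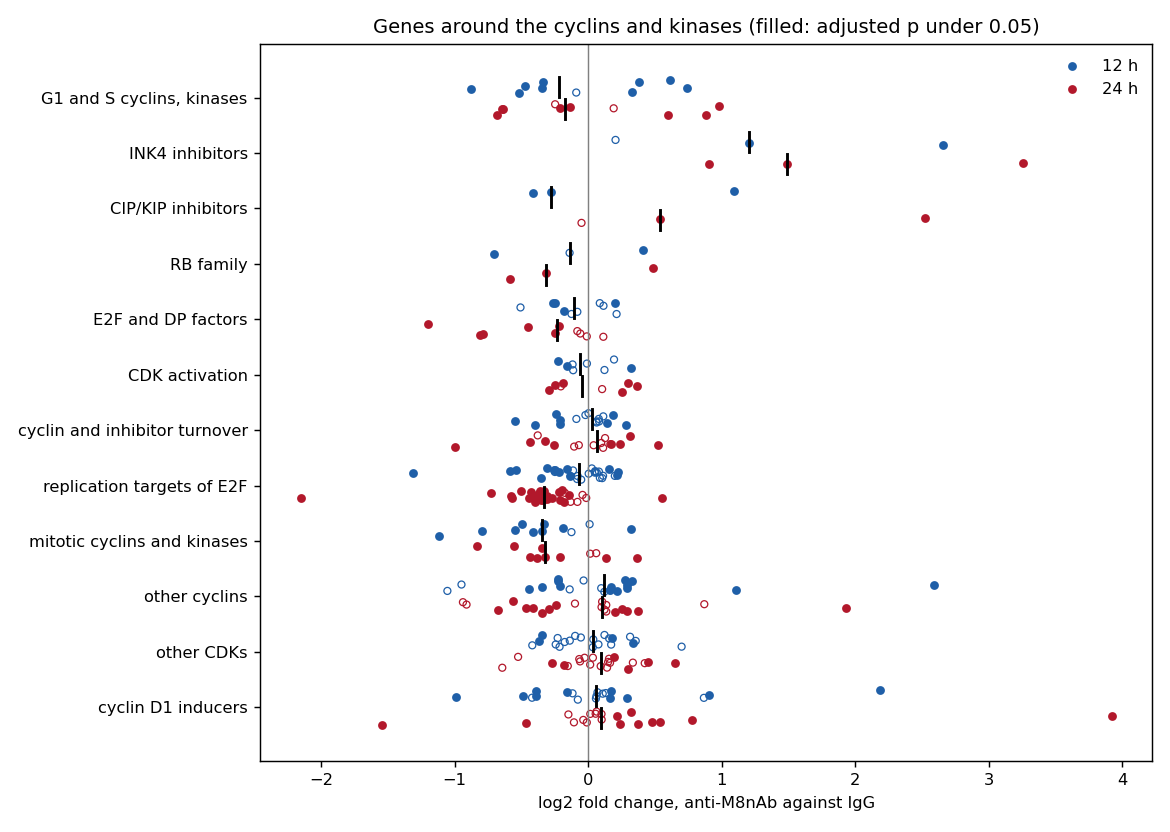
Log2 fold changes, anti-M8nAb against IgG, of the genes around the cyclins and kinases, a row for each list, at 12 h (blue) and 24 h (red); each point is a gene filled points have an adjusted p under 0.05, and black bars are medians over the list. At 24 h the replication targets lie mostly left of 0 (24 of 30 lower, beside 21.3% of all genes). The INK4 inhibitors lie right of it (3 of the 3 measured higher, beside 21.2% of all genes). CDKN2B among them passed the filter on low counts only through the anti-M8nAb libraries, which favours a higher value there.

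A list of 19 genes came from the growth factor, Wnt and AKT pathways known from other cells to act on cyclin D1. At 12 h 5 of them rose and 5 fell, beside 15.8% and 16.4% of all genes. At 24 h 8 rose and 2 fell, beside 21.2% and 21.3% of all genes. At 12 h JUN, MYC, CTNNB1, MYCN and CREB1 rose, and TCF7, AKT1, STAT5B and STAT3 were among those that fell. JUN, an AP-1 factor, was at 122 and 130.3 CPM with anti-M8nAb at 24 h, against 8.57 and 8.11 CPM with IgG (log2 fold change 3.92, SE 0.09, adjusted p = 1.30e-33). MYC rose by 0.90 at 12 h and 0.78 at 24 h (adjusted p = 6.88e-16 and 2.75e-14). The 2 that fell at 24 h were TCF7, a partner of beta-catenin (-1.55, adjusted p = 2.35e-08), and AKT1, the kinase that restrains GSK3 (-0.46, adjusted p = 1.06e-07). ITGAV, the integrin alpha V chain, rose by 0.48 at 24 h (adjusted p = 2.61e-07), and ITGB5, the beta 5 chain, had a log2 fold change of 0.01 (adjusted p = 0.842). Over the 143 genes of the 11 lists around the cyclins and kinases, 68 passed at 12 h, beside 32.2% of all genes, and 87 at 24 h, beside 42.5%. The count at 12 h was 36 and 37 without replicate 1 or replicate 2 of IgG at 12 h, and 45 without replicate 2 of anti-M8nAb at 12 h.

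The profiles most like 3 of the members were sought among 10687 genes with a mean of at least 10 CPM, by the root mean square difference of log2 CPM, centred for each gene, over the 8 libraries. KLF10 (0.042) and IDH2 (0.043) came nearest to CCND1, followed by ISYNA1, MIDN and GAA (0.050, 0.052 and 0.064). MAPK12 (0.053), UBE2C (0.054), EPHX3, SLC45A3 and GSE1 (0.066, 0.071 and 0.074) came nearest to CCNE1. MELK (0.028), ENSG00000258232, CNP, DOCK4 and RNF130 (0.035 each) came nearest to CCNA2.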

How the data were processed

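Reads of 8 RNA libraries were trimmed with Trimmomatic, aligned to GRCh38.p14 with STAR in 2 passes, freed of duplicates with Picard and counted over Ensembl genes with HTSeq. The submitters' processing notes also name FastQC 0.11.9 and GATK. The strand setting of the counting is not given in the sources used here, so reads of genes that overlap on opposite strands cannot be told apart. The counts deposited by the authors are raw counts for each gene. The FPKM deposited by the authors (RNAnorm) are scaled for gene length and library size, so levels of different genes were compared on that scale. All 62086 gene IDs were paired with a symbol, and each table has 4 further columns that were not used. A further 1005 lines of counts have a blank name and hold 53.3 to 54.1% of all counts (the largest alone 49.3 to 50.2%); they were left out.

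Groups came from the sample titles. Genes were filtered with edgeR's filterByExpr, scaled by TMM and fitted in edgeR 4.0.16 (R 4.3.3) with a mean for each of the 4 groups, all 8 libraries sharing the estimate of spread. Contrasts were tested by the two-sided quasi-likelihood F test with Benjamini-Hochberg adjustment over 20165 genes, and a gene was called at an adjusted p under 0.05. CPM are counts after TMM scaling. Alternatives were DESeq2 1.42.0, other scalings and filters, limma 3.58.1 on log2(FPKM + 0.1) or log2(FPKM + 1), a replicate block, each time alone, and each library left out. Named genes are the 10 members, up to 4 genes a list with the smallest adjusted p at 24 h, the list genes that a sentence counts in a group of 5 or fewer, and the 5 nearest profiles of CCND1, CCNE1 and CCNA2. ITGAV, ITGB5 and CCNO were named outside this rule, after their values were seen. The values of 2 genes that the rule names are not reported here. The members and lists were chosen with earlier results of these data known. The fit was tested on simulated data. Exon overlaps come from the GENCODE annotation, promoters from RefSeq.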

Additional observations from a re-analysis of the deposited data

Results flagged for a closer look

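The response to anti-M8nAb differed between 24 and 12 h, by the edgeR test of the difference itself, for 4 of the 10 genes. Of all genes tested, 12.3% passed this test. The calls of CCND1, CCNE2 and CDK6 were each lost with some single libraries left out, and that of CCND3 held. The difference of log2 fold changes (24 h minus 12 h) was -0.34 for CCND1 (adjusted p = 0.0120), 0.66 for CCND3 (adjusted p = 0.00116), -0.58 for CCNE2 (adjusted p = 0.0292) and 0.37 for CDK6 (adjusted p = 0.0152). For CCND3 and CCNE2 the log2 fold changes had opposite signs at the times, and the value at 24 h did not pass for either gene. For CCND1 and CDK6 the IgG groups also differed between the times, in the direction away from the anti-M8nAb groups.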

How the results depend on the processing

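The scarcest member, CCNA1, had 69 to 133 counts in a library. With 2 libraries a group, a left-out library leaves a lone one that is assumed to vary like the other groups. With any 1 library left out, the members called ranged from 7 to 9 at 12 h, from 7 to 9 at 24 h, from 1 to 4 for the difference between the times, from 1 to 3 between the IgG groups and from 2 to 4 between the anti-M8nAb groups, and the list genes called from 36 to 73 at 12 h and from 76 to 87 at 24 h. CCNE1, CCNA2, CCND1, CDK2 and CDK6 passed in the same direction at both times under every alternative run without a threshold on the fold. Reversals were confined to differences between the times that were not called. With 1 library left out that of CCNA1 ranged from -0.028 (without replicate 1 of IgG at 12 h) to 0.27, and that of CDK4 from -0.11 to 0.0087, being 0.0087 without replicate 2 of anti-M8nAb at 12 h and 0.0010 without replicate 1 of anti-M8nAb at 24 h. When the log2 fold change also had to be at least 1 in size, 0 members passed in each of the 5 comparisons. Of the 143 list genes, 8 passed both thresholds at 12 h and 8 at 24 h, beside 6.37% and 9.6% of all genes tested. With no filter on low counts, 2 members (CCND3 and CDK6) differed between the times. With limma on log2(FPKM + 0.1) or log2(FPKM + 1), 1 member (CCND3) differed between the times, 1 between the IgG groups and 2 between the anti-M8nAb groups; with log2(FPKM + 0.1) and no filter these counts were 0, 0 and 1, 33 list genes passed at 12 h, and 6 members did (1 higher, 5 lower), without CCND2 (adjusted p = 0.0529), CCNA1 (adjusted p = 0.0597) and CCNE2 (adjusted p = 0.42). The causes of these changes were not tested. With library sizes alone in place of TMM, the median of all genes moved by -0.06 at 12 h and -0.09 at 24 h, CDK4 passed at 12 h (-0.15, adjusted p = 0.0267) and CCNE2 at 24 h (-0.34, adjusted p = 0.0343), both lower, and CCNE2 at 12 h no longer passed (adjusted p = 0.109). DESeq2 on all libraries called 8 members at 12 h and 7 at 24 h, without CCNE2 (adjusted p = 0.122) and CDK4 (adjusted p = 0.0509). The correlation of same-numbered deviations was 0.038 at 12 h and -0.12 at 24 h. With 2 libraries a group, this cannot tell whether the libraries were paired. A replicate block on all libraries gave 9, 8, 4, 3 and 4 members called, in the order of the comparisons above, as without it. At 24 h alone, the replicate block gave 7 members and the crossed pairing, added after seeing the data, gave 8.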
